A study of Gallus gallus with 6 samples.

Results

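Cyclins, cyclin-dependent kinases (CDKs) and genes named as CDK inhibitors were compared between proliferating myoblasts and differentiated myotubes of the chicken embryo. The members are the Ensembl genes whose name in all 6 tables starts with CDKN or CDKL, is CDK followed by digits, or is CCN followed by a letter and at most 1 digit. This rule found 45 of 24881 genes: 21 cyclins, 15 CDKs, 3 CDKL kinases and 6 CDKN genes. Gene names are wider than function here: CDKN2AIP encodes no CDK inhibitor, CDKN3 encodes a phosphatase, and the CDKL kinases are relatives of the CDKs. CDK4, CDKN1C, CCNB3 and CCNI had no member row and were not analysed here.

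Both groups were primary cells from embryonic skeletal muscle at passage 1, with 3 libraries each. Myoblasts, the mononucleated precursors of muscle fibres, were sampled while proliferating in RPMI-1640 with 15% fetal bovine serum. Myotubes arise by fusion of myoblasts into cells with many nuclei and were sampled after culture in RPMI-1640 with 2% horse serum. How long the cells stayed in low serum, the breed and the embryos' age were not stated in the labels. Since no label ties a library to its own culture or embryo, p-values cover the spread between these samples alone, and that spread may be technical.

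Cyclins are regulatory subunits that switch on CDKs in turn. D-type cyclins with CDK4 or CDK6 act in G1 and phosphorylate the retinoblastoma protein, cyclins E and A with CDK2 act in S phase, and cyclins A and B with CDK1 drive mitosis. The Cip/Kip proteins p21 and p27 bind several cyclin-CDK complexes, and the INK4 proteins bind CDK4 and CDK6. In skeletal muscle, exit from the cell cycle precedes fusion, and p21 is known for its rise during this exit in mammalian myoblasts. Another set of cyclins and CDKs acts on RNA polymerase II, and of these CDK7 with cyclin H also activates other CDKs.

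The tables held 15731818 to 20537315 Ensembl gene reads per myoblast library and 21528951 to 23111863 per myotube library. Genes with a mean of at least 1 FPKM (reads scaled by gene length and library depth) over the 6 libraries were tested, 12808 genes in all, among them 43 members. In edgeR's quasi-likelihood test at an adjusted p under 0.05, 4706 genes were higher in myotubes (36.7%) and 4577 were lower (35.7%). On the TPM scale (FPKM divided by their library's sum), 5865 were higher and 3492 lower. Results on this scale come from limma on log2(TPM + 1), so the test and the added 1 differ as well as the scaling. Levels are given in CPM (counts scaled to the library's total with edgeR's TMM adjustment). Skeletal muscle markers were present in both groups, and their summed level was 1950 to 2070 CPM in myoblasts and 2480 to 2590 CPM in myotubes. Of these 13 markers 9 were higher in myotubes, and MYF5 (11.5-fold), PAX7 (3.18-fold), MYOD1 (2.39-fold) and DES (1.14-fold) were lower. Of markers of other cell types, 8 of 10 tested fibroblast markers rose, POSTN fell 5.54-fold (from 964 to 174 CPM) and THY1 was not called. The 11 matched fibroblast markers summed to 6670 to 6820 CPM in myoblasts and 11700 to 13500 CPM in myotubes. Of 7 tested macrophage and blood markers 6 fell. The 10 matched genes of that list summed to 913 to 968 CPM in myoblasts and 261 to 299 CPM in myotubes. C1QA, C1QB and C1QC fell 7.03-fold, 8.97-fold and 8.51-fold, MARCO 1.92-fold, CSF1R 1.87-fold and PTPRC 1.37-fold, and CD74 was not called. Of 4 tested neural crest markers 3 fell and ERBB3 rose 3.92-fold. The 8 matched genes of that list summed to 139 to 157 CPM in myoblasts and 16.6 to 19.7 CPM in myotubes. The 6 endothelial markers summed to under 20 CPM in each library, and no matched marker of these lists had 0 counts over all 6 libraries. The part of these other cells in the results below was not tested. In such bulk samples, fewer cells of a type and less RNA per cell cannot be told apart.

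Among the 43 tested members, 19 were higher in myotubes, 17 were lower and 7 were not called. These shares of 44.2% and 39.5% stand against 36.7% and 35.7% over all tested genes, and the 36 called members (83.7%) against 72.5%. The plot of fold changes by role shows how the roles differed. All 7 tested genes of S phase and mitosis fell. Of the 4 tested G1 genes 3 rose, as did 3 of the 4 tested G, J and Y cyclins. So did 3 of the 4 genes named as Cip/Kip or INK4 inhibitors, among them CDKN2A, whose products are uncertain. The 14 genes of the transcription cyclins and CDKs split into 4 higher, 5 lower and 5 not called. Changes of at least 2-fold were found in 8 members upwards and 8 downwards, 18.6% each way, against 14.1% and 11.1% over all tested genes, and 5 members fell at least 4-fold (11.6%, against 3.89%). The values of the groups did not overlap in 37 members (86.0%), against 76.1% of all tested genes. The median log2 fold change was 0.00 for the members and 0.01 for all tested genes. On the TPM scale these medians moved to 0.18 and 0.19, and 20 members were called higher and 15 lower. Of the 43 members, 40 had at least 1 FPKM on average in both groups, 17 of them higher and 16 lower. CCNE2, CDK15 and CDKL2 passed the filter only through the group in which they were high. CDK15 and CDKL2 are among the members at least 2-fold higher, and CCNE2 is among those at least 2-fold and at least 4-fold lower. The shares over all tested genes were not formed without such genes, so these fold counts have no matching comparison.

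**Figure D1:**
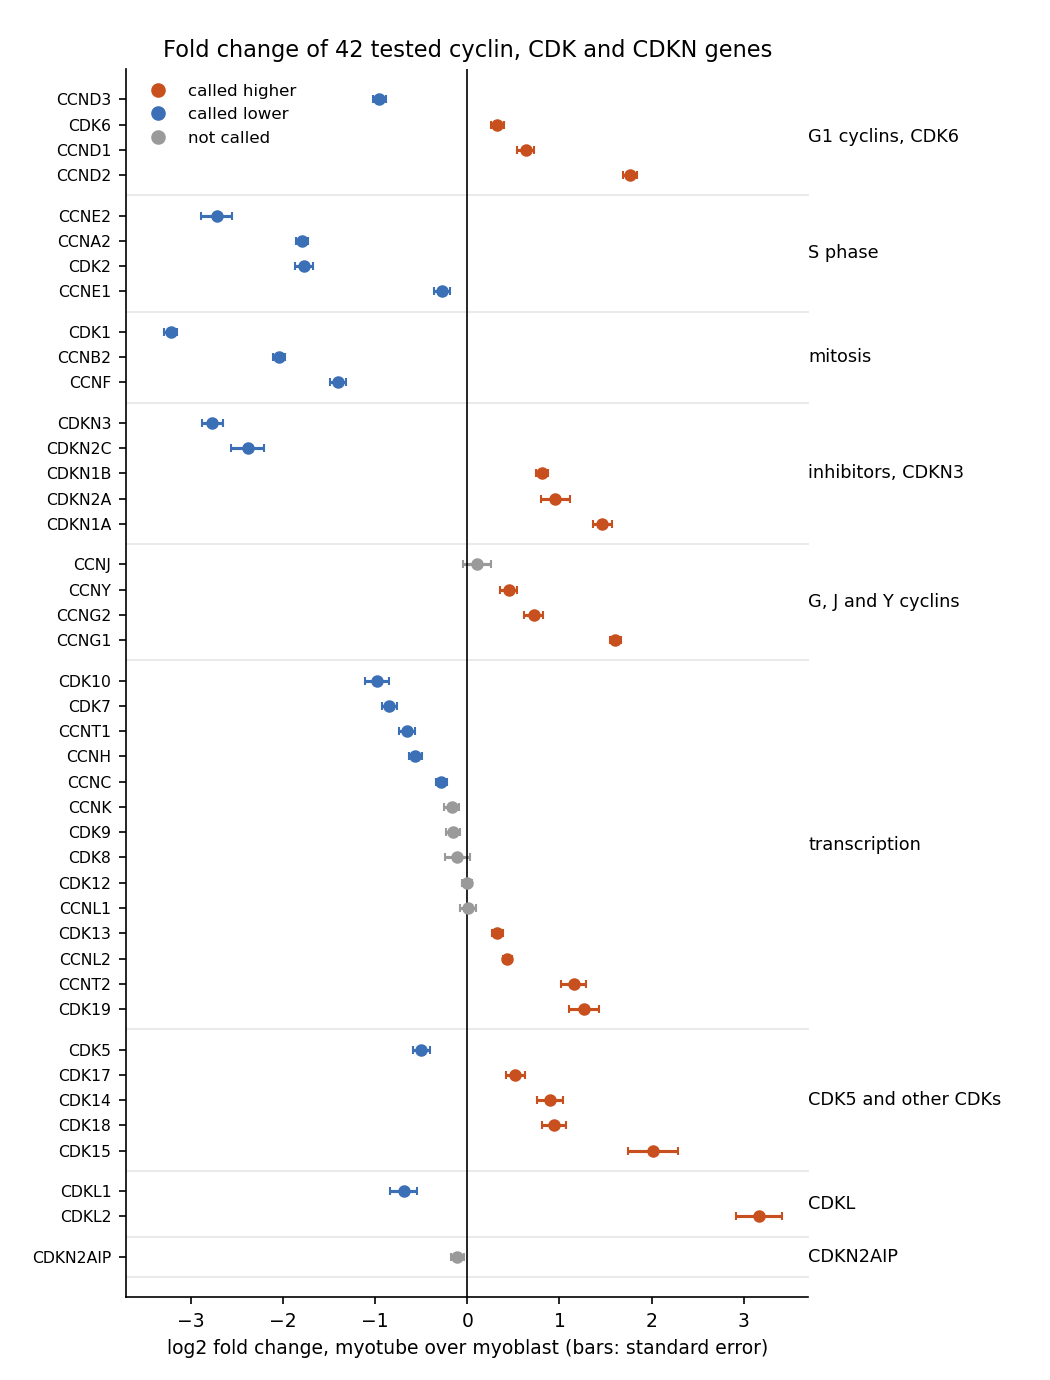
Log2 fold change of myotube over myoblast (horizontal axis) for 42 of the 43 tested members, grouped by role, with bars for the standard error of the edgeR fit (n = 3 per group) and colours for the call at an adjusted p under 0.05. All S phase and mitosis genes lie left of 0, CDK1 farthest at -3.21, and CDKL2 lies farthest right at 3.16.

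The 3 D-type cyclins did not move together. CCND2 stood at 31.0, 31.1 and 26.6 CPM in the myoblast libraries and at 102, 98.7 and 99.9 CPM in the myotube libraries. Every myotube value of CCND2 was more than 3 times the highest myoblast value, and the fitted rise was 3.40-fold (log2 1.76, SE 0.08, adjusted p = 2.66e-08). CCND1, the D-type cyclin best known as a target of growth factors, had 41.7, 35.1 and 36.0 CPM in myoblasts and 58.5, 62.8 and 53.4 CPM in myotubes. The groups did not overlap, and CCND1 rose 1.55-fold (log2 0.63, SE 0.09, adjusted p = 0.000131). CCND3, which in mouse muscle cells binds the retinoblastoma protein during differentiation, went the other way. It had 107, 106 and 106 CPM in myoblasts and 55.8, 58.1 and 50.8 CPM in myotubes, a fall of 1.93-fold (log2 -0.95, SE 0.07, adjusted p = 6.39e-07). CDK6, the G1 kinase that binds all of them, had 181, 174 and 152 CPM in myoblasts and 211, 201 and 223 CPM in myotubes. Its rise of 1.25-fold (log2 0.33, SE 0.07, adjusted p = 0.00246) was the smallest among these genes, and the highest myoblast value lay close below the lowest myotube value. The tables list CCND1 on chromosome 5 (17525970 to 17539612), CCND2 on chromosome 1 (73241231 to 73282113), CCND3 on chromosome 26 (5031084 to 5043504) and CDK6 on chromosome 2 (22731404 to 22863502). The genome build of these positions was not stated. CDK6 lies wholly within another listed gene without a name on the same strand, which had 104 CPM in myoblasts and 93.8 CPM in myotubes and was not called, so the counts of both are uncertain.

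The genes of S phase fell to different extents. CCNA2, the A-type cyclin of dividing body cells, had 135, 138 and 130 CPM in myoblasts against 41.4, 38.6 and 36.7 CPM in myotubes. It fell 3.46-fold (log2 -1.79, SE 0.07, adjusted p = 7.62e-09), and the groups were far apart. CDK2, the kinase of cyclins E and A, had 72.4, 81.9 and 81.6 CPM in myoblasts and 24, 25 and 20.2 CPM in myotubes, 3.40-fold lower (log2 -1.77, SE 0.10, adjusted p = 1.06e-07). CDK2 lies on chromosome 33 (617930 to 620154) and CCNA2 on chromosome 4 (54290252 to 54295395). The E-type cyclins, which start S phase with CDK2, differed from each other. CCNE2 had 13.6, 10.7 and 11.7 CPM in myoblasts and 1.68, 1.69 and 2.08 CPM in myotubes, a fall of 6.57-fold (log2 -2.72, SE 0.17, adjusted p = 2.37e-07). Its log2 fold change was -1.77 by log2(FPKM + 1) and -1.87 by log2(TPM + 1), but -2.52 by log2(FPKM + 0.1). CCNE1 had 21.3, 22.6 and 23.2 CPM in myoblasts and 19.3, 18.4 and 17.8 CPM in myotubes. The groups of CCNE1 did not overlap, but the fall was 1.21-fold (log2 -0.28, SE 0.09, adjusted p = 0.0149) and was not called on the TPM scale (log2 -0.08, adjusted p = 0.346) or without myoblast replicate 3 (adjusted p = 0.0514). The listed span of CCNE2 on chromosome 2 (126933818 to 127051805) reaches over or into 5 other listed genes, so its counts are uncertain. One of them lies inside that span on the same strand and rose, from 20.2 to 104 CPM. CCNA1, the A-type cyclin of the germ line in mammals, had 1 read in all myoblast libraries together and 7 in the myotubes and was not tested.

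The mitotic genes held the largest fall of the family. CDK1, whose activity brings cells into mitosis, had 254, 257 and 284 CPM in myoblasts and 28.3, 30.2 and 27.2 CPM in myotubes. It fell 9.28-fold (log2 -3.21, SE 0.07, adjusted p = 5.22e-10), and the highest myotube value of 30.2 CPM lay far below the lowest myoblast value of 254 CPM. CCNB2, a B-type cyclin, had 167, 172 and 178 CPM in myoblasts and 38.7, 44.8 and 41.6 CPM in myotubes, 4.13-fold lower (log2 -2.04, SE 0.07, adjusted p = 3.85e-09). CCNF, which binds no CDK and selects proteins for a ubiquitin ligase, fell 2.64-fold, from 35.7, 41.3 and 35.7 CPM to 14.3, 14.3 and 14 CPM (log2 -1.40, SE 0.09, adjusted p = 2.84e-07). CDK1 lies on chromosome 6 (8734947 to 8742973) and the CCNB2 row on chromosome 10 (6752260 to 6759377). RefSeq's table of the assembly GRCg7b gives CCNB2 as a synonym of its gene CCNB1, so which of these names fits the row is uncertain. All 15 tested markers of cycling cells, such as DNA replication and mitosis genes, were lower in the same myotube libraries, and their summed level went from 2520 to 2540 CPM down to 420 to 495 CPM. The part of the number of cycling cells in the fall of the S phase and mitotic members was not tested.

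**Figure D2:**
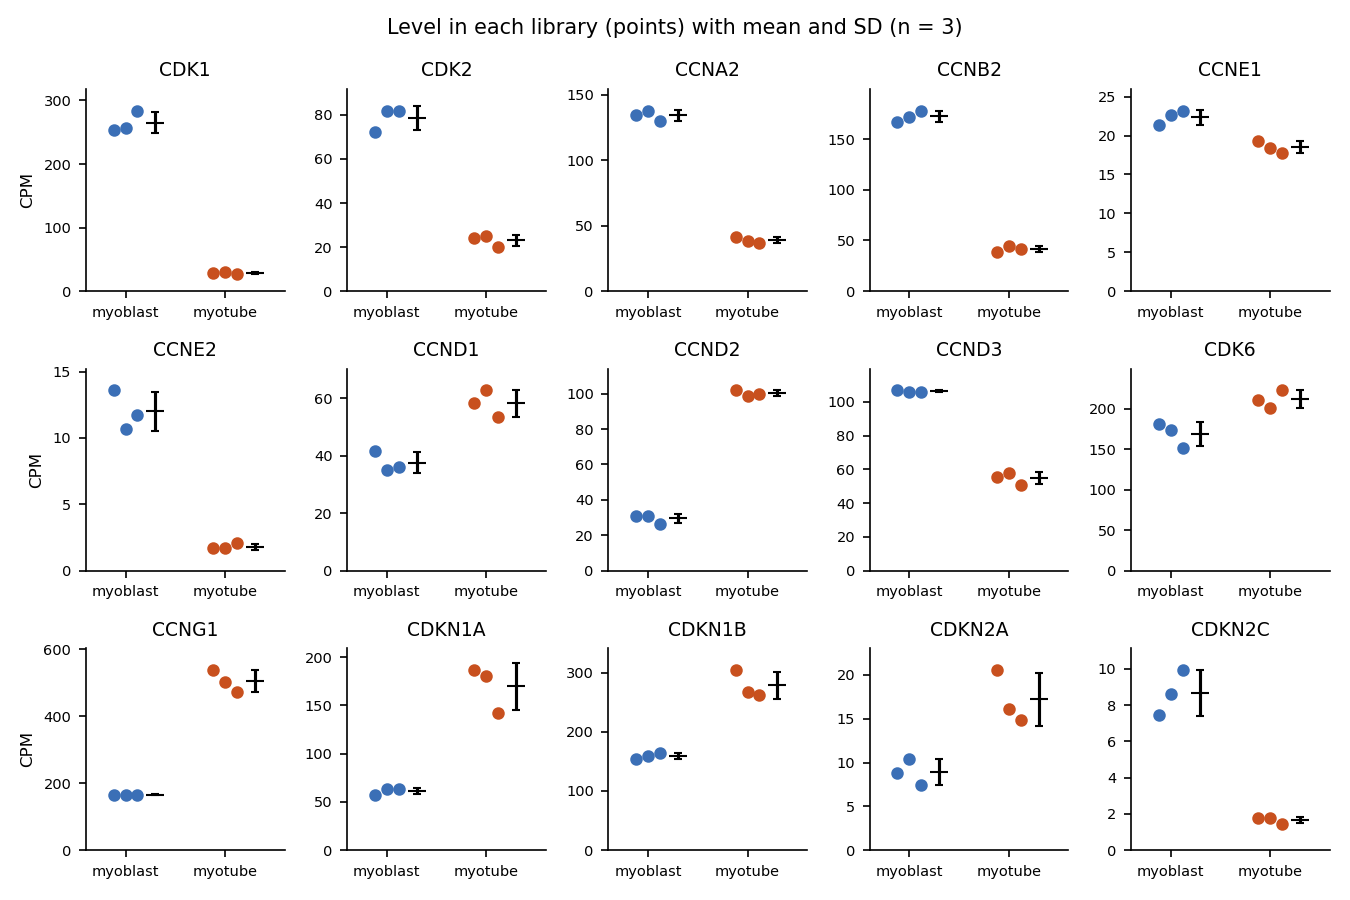
Level in CPM (vertical axis, from 0) of 15 members in each of the 3 myoblast (blue) and 3 myotube (orange) libraries, with a black mark for the mean and a bar for the SD (n = 3). CCND2, CCNG1, CDKN1A and CDKN1B lie higher in all myotube libraries, CDK1, CDK2, CCNA2, CCNB2 and CCNE2 lower, and CCNE1 and CDK6 show the smallest gaps.

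Of the inhibitors, both Cip/Kip genes and CDKN2A rose and CDKN2C fell. CDKN1A, which encodes p21, had 57.2, 63.2 and 63.6 CPM in myoblasts and 187, 180 and 142 CPM in myotubes. All myotube values were above all myoblast values, and the rise was 2.76-fold (log2 1.46, SE 0.10, adjusted p = 5.42e-07). CDKN1B, which encodes p27, had 154, 159 and 164 CPM in myoblasts and 305, 268 and 263 CPM in myotubes, a rise of 1.75-fold (log2 0.81, SE 0.07, adjusted p = 2.15e-06). The INK4 gene CDKN2C, which encodes the CDK4 and CDK6 inhibitor p18, went down with the cycling genes. It had 7.45, 8.60 and 9.95 CPM in myoblasts and 1.76, 1.77 and 1.45 CPM in myotubes, 5.21-fold lower (log2 -2.38, SE 0.18, adjusted p = 1.21e-06). CDKN2A, whose mammalian locus encodes an INK4 inhibitor and the ARF protein, had 8.80, 10.4 and 7.49 CPM in myoblasts and 20.6, 16.1 and 14.9 CPM in myotubes. It rose 1.94-fold (log2 0.96, SE 0.16, adjusted p = 0.000334), and the groups did not overlap. RefSeq gives CDKN2A as a synonym of CDKN2B too, so the products behind this row are uncertain. CDKN3, a phosphatase that removes the activating phosphate from CDK2, had 28.7, 26.8 and 27.2 CPM in myoblasts and 3.52, 4.19 and 4.44 CPM in myotubes, 6.79-fold lower (log2 -2.76, SE 0.11, adjusted p = 1.66e-08). The tables list CDKN1A on chromosome 26 (1588453 to 1591609), CDKN1B on chromosome 1 (72191984 to 72195253) and CDKN2C on chromosome 8 (24025736 to 24029708). CDKN2AIP, which encodes a protein that binds ARF, had 62.4 ± 1.97 CPM in myoblasts and 58.0 ± 2.38 CPM in myotubes (SD, n = 3) and was not called.

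Shares of the summed FPKM within a library do not depend on how libraries are scaled. Among the D-type cyclins, CCND2 held 18.4, 19.5 and 17.1% in myoblasts and 45.9, 43.5 and 47.6% in myotubes, a gain of 27.3 percentage points (two-sided exact permutation test, p = 0.1, the lowest possible with 3 libraries against 3). CCND3 went from the largest share (50.8% ± 1.77, SD, n = 3) to the smallest (19.2% ± 0.548). CCND1 held 32.8, 29.2 and 30.7% in myoblasts and 34.8, 36.8 and 33.8% in myotubes, a smaller gain without overlap. The summed level of the 3 D-type cyclins rose 1.42-fold, from 90.2 ± 4.71 to 128 ± 5.19 FPKM. Unlike the shares, this sum and those below depend on library scaling, which for FPKM is by library total without TMM. Of the summed FPKM of CDK1, CDK2 and CDK6, CDK1 and CDK2 together held 96.0, 96.3 and 97.0% in myoblasts and 78, 79.7 and 75% in myotubes (exact permutation p = 0.1). CDK1 itself went from 69.6% ± 1.33 to 37.9% ± 0.695. The share of CDK2 alone went up, from 26.8% ± 1.22 to 39.7% ± 2.46, though its level fell. This gain and the joint loss rest on length: CDK6 is listed with 14623 bases and CDK2 with 897. By CPM the joint loss was 47.4 percentage points in place of 18.9. In mean CPM, CDK2 went from 78.6 to 23.1 and CDK6 from 169 to 212. Of the inhibitors, CDKN1A gained 13.4 percentage points, from 27.2, 28.1 and 27.6% to 41.2, 43.5 and 38.4% (exact permutation p = 0.1). CDKN1B remained the most abundant inhibitor per length in each library (51.3 to 57.8%), and CDKN2C went from 11.8% ± 1.19 to 1.23% ± 0.0679. The size of the CDKN2C share rests on length too: it is listed with 504 bases, CDKN2A with 1521, CDKN1A with 1532 and CDKN1B with 1943. The 4 inhibitor genes summed to 139 ± 5.26 FPKM in myoblasts and 269 ± 25.2 FPKM in myotubes, 1.94-fold more. CDKN2A, whose products are uncertain, held 4.05% of this sum in myoblasts and 4.19% in myotubes on average. The 5 E-, A- and B-type cyclins summed to 204 ± 1.5 and 60.5 ± 2.15 FPKM, 3.37-fold less in myotubes.

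**Figure D3:**
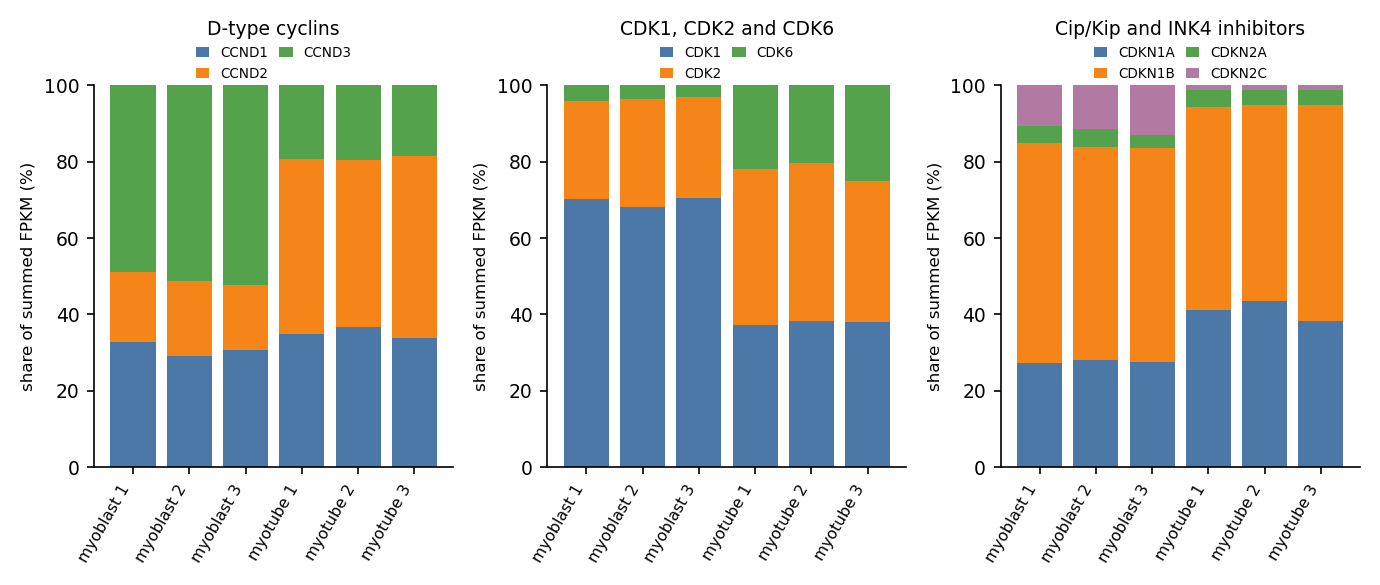
Share of the summed FPKM (vertical axis, 0 to 100%) that each gene held in each of the 6 libraries. The panels show the D-type cyclins, then CDK1, CDK2 and CDK6, then the genes named as Cip/Kip and INK4 inhibitors. CCND2 and CCND3 trade places between the groups, the CDK6 share widens from at most 3.97% to at least 20.3%, and CDKN1B keeps the largest share of the inhibitors.

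The G-type cyclins rose. CCNG1, which in mammals binds a subunit of protein phosphatase PP2A, had 165, 166 and 166 CPM in myoblasts and 539, 502 and 473 CPM in myotubes. It rose 3.05-fold (log2 1.61, SE 0.06, adjusted p = 1.05e-08), and with 328 ± 18.2 FPKM it had the highest level per length of all members in myotubes. In myoblasts CDK1 held that place with 218 ± 11.1 FPKM and CCNG1 had 103 ± 0.849. CCNG2, its relative, known in mammals from cells that stop dividing, rose 1.65-fold from 14.5 ± 1.11 to 23.8 ± 1.99 CPM (adjusted p = 0.000115). CCNY, a cyclin anchored at the cell membrane, rose 1.37-fold to 18.0 ± 0.754 CPM (adjusted p = 0.00125). CCNJ was not called at 6.41 ± 1.07 and 6.86 ± 0.518 CPM (adjusted p = 0.561), with overlapping groups. CCNO, a cyclin of multiciliated cells, lay under the filter with 69 reads in myoblasts and 37 in myotubes. Without the filter it was called lower (log2 -1.29, SE 0.40, adjusted p = 0.0132). CCNG1 lies on chromosome 13 (6735705 to 6741308).

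Among cyclins and CDKs that act on transcription, members of 1 complex moved together in some cases and apart in others. CDK7 and cyclin H, with MNAT1, form the kinase that activates other CDKs and is part of the initiation factor TFIIH. CDK7 fell 1.80-fold from 43.4 ± 3.29 to 24.2 ± 0.862 CPM (adjusted p = 5.52e-06) and CCNH fell 1.48-fold from 63.5 ± 2.07 to 42.9 ± 1.76 CPM (adjusted p = 4e-05). MNAT1, the assembly factor of this complex and no member, rose 1.73-fold from 52.0 ± 3.0 to 89.7 ± 5.06 CPM (adjusted p = 4.66e-06), in the opposite direction. CDK7, CCNH, CCNO and CDKN2A are listed on chromosome Z, which differs in copy number between the sexes of birds. In the same libraries the summed level of the 141 rows listed on chromosome W, which only females carry, was 163 to 175 CPM in myoblasts and 388 to 415 CPM in myotubes. Over the 575 tested genes of chromosome Z the median log2 fold change was -0.05, with 187 higher and 208 lower (36.2%). The part of the sex of the embryos in the values of these 4 genes, or of any other member, was not tested.

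In the kinase module of Mediator, CDK19 rose and its close relative CDK8 was not called. CDK19 had 15.5, 11.3 and 9.15 CPM in myoblasts and 26.0, 28.7 and 31.3 CPM in myotubes, 2.41-fold higher (log2 1.27, SE 0.17, adjusted p = 6.4e-05). CDK8 had 14.3 ± 2.07 and 13.2 ± 1.56 CPM (adjusted p = 0.486), and the shared partner CCNC fell 1.22-fold from 79.3 ± 1.41 to 65.2 ± 2.36 CPM (adjusted p = 0.00196), a call that was lost on the TPM scale (log2 -0.10, adjusted p = 0.16). In the elongation factor P-TEFb, where CDK9 pairs with either T-type cyclin, CCNT2 rose and CCNT1 fell. CCNT2 had 18.9, 13.6 and 14.4 CPM in myoblasts and 31.5, 33.2 and 39.8 CPM in myotubes, 2.23-fold higher (log2 1.16, SE 0.14, adjusted p = 2.73e-05). CCNT1 fell 1.57-fold from 68.7 ± 3.96 to 43.7 ± 4.45 CPM (adjusted p = 8.1e-05), and CDK9 was not called at 62.4 ± 3.87 and 56.0 ± 3.53 CPM (adjusted p = 0.0934, or 0.0485 without myoblast replicate 1). CDK13, which with cyclin K phosphorylates elongating polymerase, rose 1.25-fold from 72.7 ± 3.75 to 91.1 ± 1.85 CPM (adjusted p = 0.000844). Its relative CDK12 had 106 ± 5.33 and 106 ± 1.89 CPM (adjusted p = 0.995) and cyclin K 61.3 ± 3.45 and 54.5 ± 4.85 CPM (adjusted p = 0.0923, or 0.019 without myotube replicate 1), neither called. CCNL2, a cyclin linked to splicing, rose 1.35-fold to 176 ± 5.61 CPM (adjusted p = 2.49e-05), whereas CCNL1 was not called at 56.3 ± 3.88 and 56.6 ± 5.80 CPM (adjusted p = 0.948). CDK10 fell 1.98-fold from 12.5 ± 0.569 to 6.31 ± 0.868 CPM (adjusted p = 7.04e-05).

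Ratios of related genes within a library were formed for 9 pairs, chosen after the values were seen. In each pair the 3 myotube ratios lay wholly to one side of the 3 myoblast ratios (exact permutation p = 0.1 in each, adjusted p = 0.1 over the 9 pairs by exact permutation, the smallest possible). Because of that choice, the separation and these p-values describe the pairs and test nothing. The ratio of CCND2 to CCND3 moved by 2.72 on the log2 scale, and that of CCNE2 to CCNE1 by -2.45. CCNE2 passed the filter only through its myoblast level, and its counts are uncertain. Per length, CCNE2 stood at 0.55 times the FPKM of CCNE1 in myoblasts and at 0.101 times in myotubes. CCNT2 gained 1.82 log2 units on CCNT1 and passed it per length, from an FPKM ratio of 0.358 to 1.25. CCNT1 is listed at bases 21 to 5787 of a scaffold not placed on a chromosome. Whether its row covers the whole gene is uncertain, and so is this crossing per length. CDK19 gained 1.40 log2 units on CDK8 and went from 0.775 to 2.00 times its FPKM. The smallest shift was of CDK13 over CDK12, by 0.33, and CDKN1A gained 0.65 on CDKN1B.

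**Figure D4:**
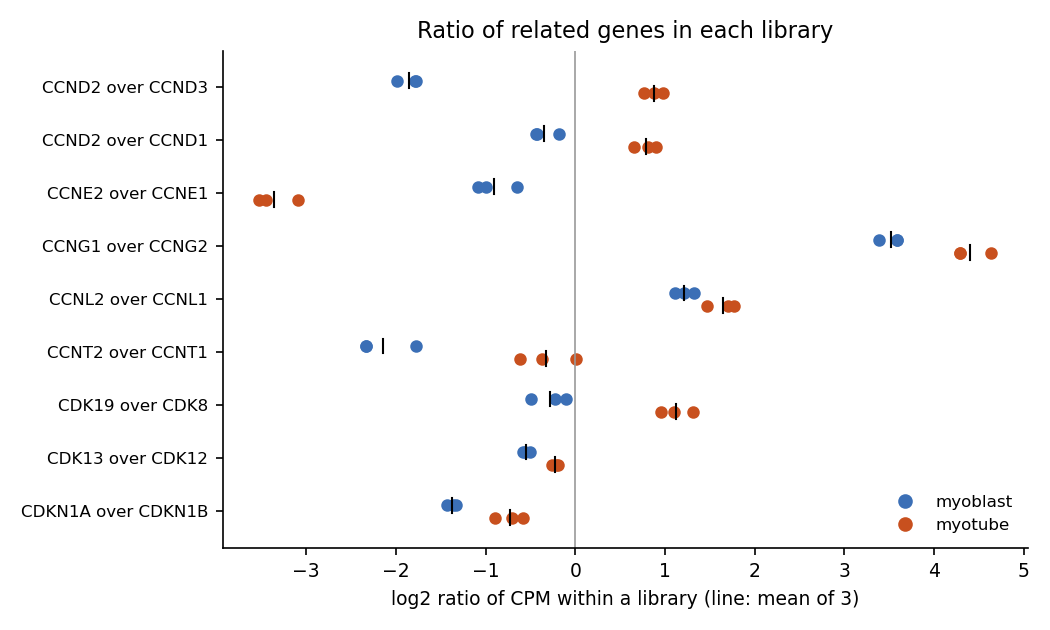
Log2 ratio of the CPM of related genes (horizontal axis) in each myoblast (blue) and myotube (orange) library, with a line at the mean of 3 libraries. The 9 pairs were chosen after the values were seen. The groups are separate in each pair, with the widest gaps for CCND2 over CCND3 and CCNE2 over CCNE1.

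Of the 8 remaining kinases 6 were called higher, where 36.7% of all tested genes were, and CDK5 and CDKL1 fell. CDK15 and CDKL2, among the 6, passed the filter only through their myotube level. CDK5, best known from neurons, fell 1.41-fold, from 61.1 ± 6.71 to 43.2 ± 2.67 CPM (adjusted p = 0.000755). Of its activators, CDK5R1 had no read in any library and CDK5R2 had 1 read in all, a pair looked up after the values were seen. CDK14, which pairs with cyclin Y at the membrane in WNT signalling, rose 1.86-fold from 25.7 ± 5.08 to 47.7 ± 5.33 CPM (adjusted p = 0.000214), the same direction as CCNY. CDK17 and CDK18, kinases of the PCTAIRE group, rose 1.44-fold and 1.92-fold (adjusted p = 0.000982 and 9.47e-05), to 36.7 ± 2.18 and 10.7 ± 1.22 CPM. CDK15, a relative of CDK14, had 0.707, 0.623 and 0.503 CPM in myoblasts, from 31 reads, and 2.71, 2.55 and 2.13 CPM in myotubes, from 169 reads. Its rise was 4.05-fold (log2 2.02, SE 0.27, adjusted p = 7.04e-05). The log2 fold change of CDK15 was 1.09 by log2(FPKM + 1) and 1.33 by log2(TPM + 1), but 1.90 by log2(FPKM + 0.1). CDKL2 showed the largest rise of the members, from 0.578, 1.56 and 1.46 CPM to 11.8, 10.3 and 10.7 CPM, 8.95-fold (log2 3.16, SE 0.25, adjusted p = 1.46e-06). Its log2 fold change was 1.88 by log2(FPKM + 1) and 2.20 by log2(TPM + 1), but 3.08 by log2(FPKM + 0.1). These values rest on 63 reads in myoblasts and 749 in myotubes. CDKL1 fell 1.61-fold from 8.14 ± 0.432 to 5.03 ± 0.618 CPM (adjusted p = 0.00141).

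Other genes of the pathway were read from 4 lists. The lists were chosen with earlier results of these data known, so their shares beside those of all tested genes are no test. PLK1 and UBE2C are also among the 15 markers of cycling cells above. Of 15 tested genes of the RB, E2F and DREAM list, which controls transcription of cell cycle genes, 12 fell (80.0%, against 35.7% of all tested genes) and none rose, with a median log2 fold change of -0.67 against 0.01 for all tested genes. RB1 fell 1.65-fold from 120 ± 6.13 to 72.6 ± 3.25 CPM, its relative RBL1 fell 2.31-fold to 20.0 ± 2.27 CPM, and E2F1, the activator that RB1 binds, fell 4.30-fold from 141 ± 8.01 to 32.8 ± 2.06 CPM. The repressor E2F8 fell 5.33-fold to 5.50 ± 0.489 CPM. Of 6 tested CDK phosphatase, kinase and CKS genes 3 fell (50%, against 35.7% of all tested genes) and 1 rose (16.7%, against 36.7%). Among those that fell were PLK1 (7.77-fold, to 21.8 ± 2.48 CPM) and WEE1, the kinase that holds CDK1 inactive (2.92-fold, to 25.4 ± 0.748 CPM), and MNAT1 rose. Of 22 tested genes that mark cyclins and CDK inhibitors for destruction 15 fell (68.2%, against 35.7% of all tested genes) and 7 rose (31.8%, against 36.7%), with a median of -0.37. UBE2C and CDC20, which act with the anaphase-promoting complex, fell 13.4-fold and 8.20-fold, and SKP2, which targets p27, fell 1.28-fold from 119 ± 4.09 to 93.2 ± 2.35 CPM. BTRC and CUL4B, parts of other ubiquitin ligases, rose 1.64-fold and 1.55-fold. Of 12 tested other CDK partners 4 rose (33.3%, against 36.7% of all tested genes) and 6 fell (50%, against 35.7%), with a median log2 fold change of -0.04. The largest rises were of MED13L (2.77-fold, to 123 ± 8.42 CPM) and MED13 (2.08-fold, to 92.2 ± 0.232 CPM), which tie the CDK8 and CDK19 module to Mediator, and the largest falls of CABLES2 (2.00-fold) and CNPPD1 (1.78-fold).

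**Figure D5:**
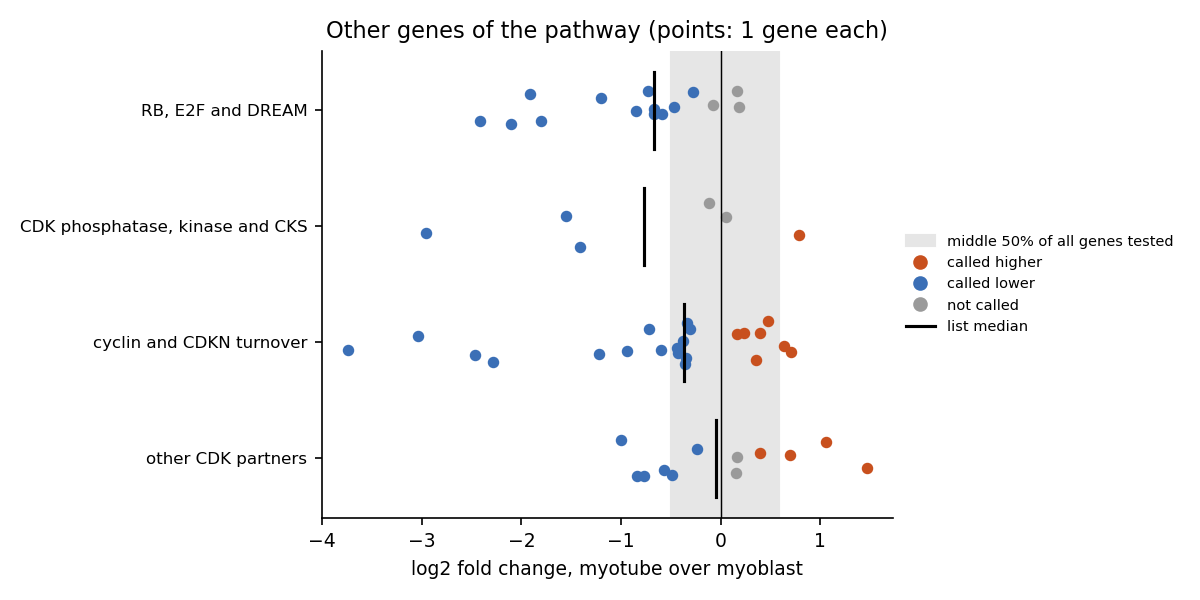
Log2 fold change of myotube over myoblast (horizontal axis) of each tested gene in 4 pathway lists, coloured by call, with a black line at each list's median and a grey band for the middle 50% of all 12808 tested genes (-0.50 to 0.59). In the RB, E2F and DREAM list no gene was called higher, while the turnover list reaches from UBE2C at -3.74 to BTRC at 0.71.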

How the data were processed

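RNA was extracted with Trizol and sequenced as Illumina libraries, per the labels' protocols. For each library the authors deposited raw counts and FPKM for every gene, per the file headers. The myoblast tables head their columns PM where the samples are titled GM, and each table was taken as that of the sample it was deposited under. The submitters' processing notes name HISAT and HTSeq. Their versions, the genome build and the strand setting were not stated. The deposited FPKM equals the count divided by a fixed length and the library total. This length was the listed one in 28 of 45 members and another whole number, the same in all 6 libraries, in the rest. Loci without an Ensembl identifier, 1.66 to 2.12% of counts, were left out of tests and library sizes, with 2 rows of annotation text per myotube table.

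Counts were tested in edgeR 4.0.16 (R 4.3.3) with TMM scaling and a two-sided quasi-likelihood F-test, adjusted by Benjamini-Hochberg over all 12808 tested genes. The standard error is the log2 fold change divided by the root of F. CPM uses TMM-scaled library sizes. Exact permutation tests used scipy 1.17.1. Depth limits rare genes, and p-values and intervals cover no error of mapping. The procedure was tested on simulated data. The variance between replicates was 6.27 to 20.2 times that of counting noise (chi-square per degree of freedom, summed over genes), so none was a copy. Deviations of same-numbered libraries correlated at -0.04, 0.10 and -0.15, and those of other myoblast and myotube libraries at -0.15 to 0.18. With 3 libraries per group these values cannot decide whether the numbers pair the samples, and the main fit used no pairing.

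Alternatives were DESeq2 1.42.0, other scalings and filters, a robust fit, a stricter threshold, the replicate block and leaving out each library. For log2 FPKM, the TPM scale and quantile normalization, limma 3.58.1 replaced edgeR. Members and lists were chosen with earlier results of these data known. CDK1, CDK2, CDKN1A, CCND1, CCND2, CCND3 and CCNG1, members called with at least a 2-fold change, CDK6, CDKN1B and the INK4 genes are given with every library's value, and the others by mean or range, apart from CCNE1, given in full beside CCNE2 after its values were seen. The values of 1 tested member and of 1 pathway list are not reported here, but the member is in the counts. From each pathway list at most the 2 called genes with the largest change in each direction are named, beside RB1, RBL1, E2F1 and SKP2. Of 45 members, 8 overlap another listed gene. No sequences are shown, since no sequence table was used here.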

Additional observations from a re-analysis of the deposited data

How the results depend on the processing

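The count of members called higher was 19 under 17 of 18 alternatives and 20 on the TPM scale, and the count called lower ran from 15 to 18. Of 774 gene-by-setting values of the 43 tested members, 748 kept direction and side of the threshold, and 34 members did so under all 18 alternatives. Of the other 9, CCNE1 lost its call on the TPM scale, at an adjusted p under 0.01 and without myoblast replicate 3, and CCNC on the TPM scale. The 7 uncalled members lay near 0. CDK12 turned positive with library totals (0.0577), quantile normalization (0.109), log2(FPKM + 1) and log2(FPKM + 0.1) (0.0602 and 0.0635), the TPM scale (0.178, called there with an adjusted p = 0.0481), the replicate block (0.0004) and without 1 library (-0.0268 to 0.0386). CCNL1 turned negative with DESeq2 (-0.0014), median-of-ratios size factors (-0.0012), filterByExpr (-0.0238) and without 1 library (-0.0751 to 0.0779). CCNJ did so by quantile normalization (-0.0299) and without 1 library (-0.0317 to 0.213). CDKN2AIP (0.0763), CCNK (0.0135), CDK8 (0.0726) and CDK9 (0.0284) turned positive on the TPM scale, and CDK8 without 1 library (-0.187 to 0.0156). The cause was not tested. The replicate block gave 19 members higher and 17 lower, and 4447 and 4337 of all genes. Shares and ratios kept their direction without each library, at 26.4 to 28.4 percentage points for CCND2, -20.0 to -17.6 for CDK1 with CDK2 and 12.2 to 14.7 for CDKN1A. Depth limits CCNA1, CCNO, CDK15 and CDKL2.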

Other observations

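Of the members on placed chromosomes, 5 neighbouring pairs are less than 2 Mb apart, and both genes of each pair were called in the same direction. CDKN1B and CCND2 (1046.0 kb apart on chromosome 1), CDK14 and CDK6 (606.3 kb, chromosome 2), CDKL2 and CCNG2 (947.9 kb, chromosome 4) and CDKN1A and CDK18 (564.8 kb, chromosome 26) rose, and CDKN3 and CDKL1 (1311.8 kb, chromosome 5) fell. The distance was chosen after the positions were seen, and these pairs have no test. The share of such neighbours that go the same way over all tested genes was not formed, so these pairs have no background to be read against. Some neighbours farther apart went opposite ways. On chromosome 26, CDK18 (2156419 to 2171476) rose and CCND3 (5031084 to 5043504) fell. On chromosome 3, CDK19 (66536015 to 66649661) rose and CCNC (71627448 to 71645299) fell.

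Per length, the order of the members changed between the groups. In myoblasts the highest levels were of CDK1 (218 ± 11.1 FPKM, SD, n = 3), CCNB2 (122 ± 2.49), CCNG1 (103 ± 0.849) and CDK2 (84.1 ± 5.14). In myotubes they were of CCNG1 (328 ± 18.2), CDKN1B (144 ± 10), CDKN1A (111 ± 15.2) and CCND2 (58.5 ± 0.471). CDK1 went from rank 1 to rank 18 of 45 and CDKN1A from rank 11 to rank 3. These ranks rest on the lengths behind FPKM. CDK2, at rank 4 in myoblasts and 16 in myotubes, had 78.6 and 23.1 CPM. CDK6, at ranks 30 and 27, had 169 and 212 CPM. CCNC (44.9 ± 1.43) and CCND1 (45.2 ± 3.77) did not differ beyond their spread in myotubes.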
